A study of Homo sapiens with 6 samples.

Results

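The enzymes that make serine and pass its carbon to folate were examined in MCF10A cells after depletion of PAX9, a paired box transcription factor of RNA polymerase II. The 10 genes are PHGDH, PSAT1, PSPH, SHMT1, SHMT2, MTHFD1, MTHFD1L, MTHFD2, ALDH1L2 and ASNS. They are 10 of the 26822 gene symbols in the deposited table, each found by an exact match of its symbol, and each had a single row. The set was chosen on the change in siPAX9 seen in this same table, so the values of its genes are given as a description, without a test. MCF10A is a long-established, non-tumorigenic cell line from human breast epithelium. Both groups received 30 nM of siRNA for 72 hours, either a non-targeting siRNA (siNT) or siRNAs that target PAX9 (siPAX9), with 3 samples in each group. RNA-seq of poly(A)+ RNA measured mRNA levels, given as FPKM, fragments scaled by transcript length and by the number of mapped reads. Each group has a single pooled FPKM per row. Values per sample are absent from this table, so the spread of replicates is not known, and levels and ratios are given untested. The authors' p-values and q-values for this comparison were deposited with the FPKM but were left unused here. The study's methods state the sequencing depth only as a range over the libraries, so the number of reads behind a single FPKM is unknown. In a bulk sample, fewer cells of a type and less RNA per cell cannot be told apart.

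Serine is made from 3-phosphoglycerate, an intermediate of glycolysis, in 3 steps. PHGDH oxidises it, PSAT1 adds the amino group of glutamate, and PSPH removes the phosphate. Serine hydroxymethyltransferases (SHMT1 in the cytosol, SHMT2 in mitochondria) then split serine into glycine and a carbon unit carried by tetrahydrofolate. In mitochondria MTHFD2 and MTHFD1L turn this unit into formate, and ALDH1L2 can oxidise it to carbon dioxide. In the cytosol MTHFD1 takes up the formate for purine and thymidylate synthesis. ASNS makes asparagine from aspartate and glutamine. Several of these genes are known targets of ATF4, the transcription factor of the amino acid response.

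PAX9 itself stood at 2.80 FPKM in siNT against 0.325 in siPAX9, so that 11.6% of the siNT level was left in the depleted cells. Its row extends from 37126773 to 37642998 on chromosome 14, and overlap with other genes was not checked for it. The basal epithelial markers KRT5, KRT14, KRT17, TP63, CDH3, ITGA6 and LAMB3 were all present, and 0 of the 7 differed 2-fold. The mesenchymal, blood and endothelial markers were at or near 0 for 4 of 6 fibroblast, 4 of 5 leukocyte and 2 of 4 endothelial genes, with an FPKM below 0.1 in both groups.

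Promoters are shown for the 5 genes that were at least 2-fold lower in siPAX9 and had a sequence, because these genes were low together. Sequences were taken from RefSeq (build GRCh38.p14) and span the 250 bases before and 50 bases after the annotated start, 5′ to 3′ on the strand of the gene. They were found for 7 of the 10 genes, not for PSPH, SHMT2 and ALDH1L2. Capitals mark TGATGNAA, the form of sequence that ATF4 dimers bind, and CCAAT, the NF-Y box, on either strand. The first is PHGDH (chr1:119711684-119711983, plus strand), then PSAT1 (chr9:78296875-78297174, plus strand), MTHFD2 (chr2:74198365-74198664, plus strand), ASNS (chr7:97872359-97872658, minus strand) and MTHFD1L (chr6:150866236-150866535, plus strand).
PHGDH: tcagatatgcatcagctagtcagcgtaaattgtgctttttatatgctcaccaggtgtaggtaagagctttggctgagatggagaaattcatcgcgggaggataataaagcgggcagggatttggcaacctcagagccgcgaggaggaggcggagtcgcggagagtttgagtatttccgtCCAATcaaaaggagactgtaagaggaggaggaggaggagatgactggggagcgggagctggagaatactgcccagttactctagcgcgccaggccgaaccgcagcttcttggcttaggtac
PSAT1: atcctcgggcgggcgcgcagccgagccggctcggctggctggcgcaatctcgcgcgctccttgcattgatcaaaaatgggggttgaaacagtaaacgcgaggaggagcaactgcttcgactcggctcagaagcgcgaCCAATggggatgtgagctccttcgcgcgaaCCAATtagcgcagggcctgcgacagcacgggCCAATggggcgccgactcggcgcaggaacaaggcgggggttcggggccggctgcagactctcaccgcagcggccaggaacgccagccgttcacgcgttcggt
MTHFD2: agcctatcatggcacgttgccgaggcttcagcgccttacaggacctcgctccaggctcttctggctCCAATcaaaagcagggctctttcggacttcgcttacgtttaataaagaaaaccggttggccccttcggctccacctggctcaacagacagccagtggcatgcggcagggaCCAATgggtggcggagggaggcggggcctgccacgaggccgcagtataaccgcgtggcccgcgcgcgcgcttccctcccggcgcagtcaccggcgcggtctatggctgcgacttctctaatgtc
ASNS: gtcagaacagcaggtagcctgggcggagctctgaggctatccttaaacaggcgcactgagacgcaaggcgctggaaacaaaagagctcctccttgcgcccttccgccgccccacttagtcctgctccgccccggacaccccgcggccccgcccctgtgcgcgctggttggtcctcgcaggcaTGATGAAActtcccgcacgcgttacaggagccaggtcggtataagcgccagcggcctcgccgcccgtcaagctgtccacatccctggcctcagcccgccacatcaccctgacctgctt
MTHFD1L: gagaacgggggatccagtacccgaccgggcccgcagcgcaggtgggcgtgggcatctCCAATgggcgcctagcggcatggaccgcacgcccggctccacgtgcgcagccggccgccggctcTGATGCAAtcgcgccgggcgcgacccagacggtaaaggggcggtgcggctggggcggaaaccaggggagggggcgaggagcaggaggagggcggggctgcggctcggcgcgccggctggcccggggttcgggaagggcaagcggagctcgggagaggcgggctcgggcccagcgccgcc

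TGATGNAA was found in ASNS, as TGATGAAA from 68 to 61 bases upstream of the start, and in MTHFD1L, as TGATGCAA from 129 to 122 bases upstream of the start shown. These were 2 of the 7 genes with a sequence. Of all 35116 promoter windows of the same length, 3.62% held the motif, as did 4.46% of the 27305 genes in at least 1 window. MTHFD1L has 4 windows with different annotated starts, of which 3 overlap and hold the same copy. From the other starts this copy begins 90 bases upstream in one window and lies 24 to 31 bases downstream in another, and the remaining window holds none. Of the 2 windows of ASNS, the one not shown holds no copy. CCAAT was found in 6 of the 7 genes, in 34.6% of all windows and in 39.7% of all genes. PSAT1 carried 3 copies of CCAAT, which began 113, 83 and 52 bases upstream of the start. MTHFD2 carried 2 copies, which began 184 and 74 bases upstream, and PHGDH 1, which began 71 bases upstream. SHMT1 and MTHFD1, whose FPKM was within 2-fold, also carried 2 copies each. ASNS, which was at least 2-fold lower, carried none. CACGTG, the E-box, was found in MTHFD1 and MTHFD1L, against 7.26% of all windows and 8.77% of all genes. TGACNNNGC, the form that NRF2 dimers bind, was found in MTHFD2 alone, against 13.3% of all windows and 16.1% of all genes. GCGGAACGG, which the study lists among sequences bound by PAX9, was found in 0 of the 7 genes, in 0.225% of all windows and in 0.267% of all genes. These motifs were searched on both strands as exact letters.

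FPKM was lower in siPAX9 than in siNT for 10 of the 10 genes. Of the 13145 genes with a mean FPKM of at least 1 that were above 0 in both groups, 55.4% were lower. At least 2-fold lower were 7 of the 10, and the remaining 3, PSPH, SHMT1 and MTHFD1, were within 2-fold. Among the 13264 genes with a mean FPKM of the groups of at least 1, 6.90% were at least 2-fold lower in siPAX9, and 6.82% were at least 2-fold higher. None of the 10 genes was 2-fold higher. The rule that chose the genes used this contrast, so the share of 7 in 10 is a description and not a result about the set. The median log2 ratio of siPAX9 to siNT was -1.75 over the 10 genes and -0.07 over the 13145 of these genes with an FPKM above 0 in both groups. Without PHGDH, the median of the other 9 was -1.62. The summed FPKM of the 10 genes was 551 in siNT and 163 in siPAX9, so 29.5% was left.

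**Figure D1:**
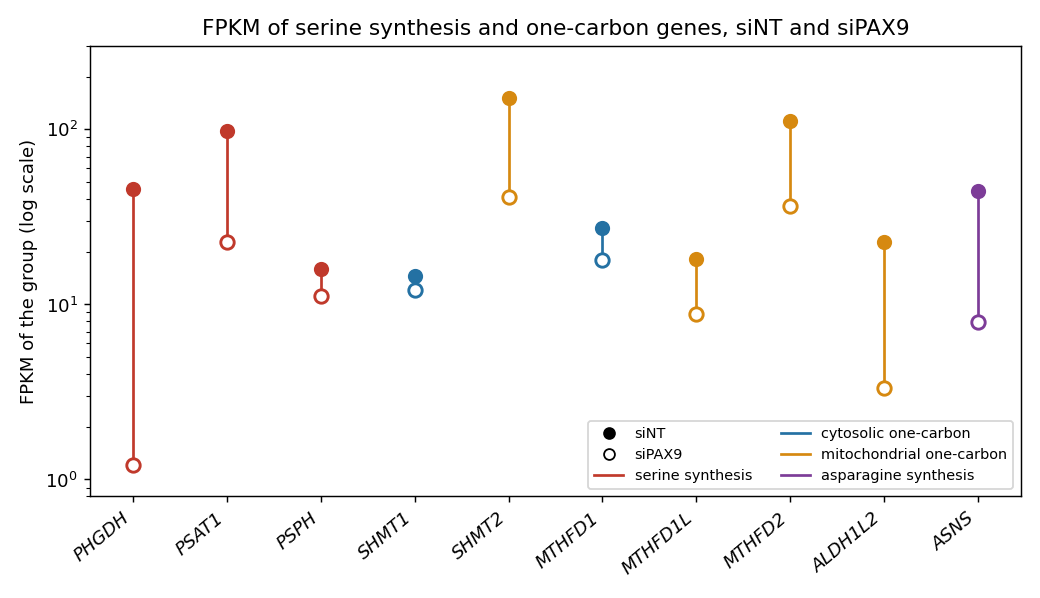
The vertical axis gives the FPKM of the group on a log scale for each of the 10 genes, with filled points for siNT and open points for siPAX9, coloured by role. Each point is 1 pooled value, so there are no error bars. PHGDH spans the longest line, from 45.5 to 1.20, and SHMT1 the shortest, from 14.5 to 12.0.

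In the serine synthesis arm the first enzyme differed most. PHGDH (chromosome 1, 120254419 to 120286849 on UCSC hg19, as are all positions of rows of the table) stood at 45.5 FPKM in siNT against 1.20 in siPAX9. This is 37.8-fold lower, a log2 ratio of -5.24, with 2.64% of the siNT level left. Of the 13145 genes above 0 in both groups, 8 had a lower log2 ratio, and 52 further genes were listed at 0 in siPAX9. In siPAX9, 3.21% of the 13264 genes had a lower FPKM than PHGDH, against 86.3% in siNT. Above 0 in both groups, 1811 genes had an FPKM in siNT at or above that of PHGDH, and 2 of them, PHGDH included, had a log2 ratio this low. Another 10 genes at or above PHGDH in siNT were listed at 0 in siPAX9, and their rows bear the symbols of microRNAs and small nucleolar RNAs.

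PSAT1 (chromosome 9, 80911991 to 80945009), the aminotransferase of the middle step, stood at 98.4 FPKM in siNT against 22.6 in siPAX9. Its log2 ratio was -2.12, and 23.0% of the siNT level was left. PSPH (chromosome 7, 56077929 to 56119268), the phosphatase of the last step, stood at 15.9 FPKM in siNT against 11.2 in siPAX9, a log2 ratio of -0.50. The order of the 3 enzymes differed between the groups. In siNT the FPKM of PHGDH was 2.86 times that of PSPH, whereas in siPAX9 the FPKM of PSPH was 9.35 times that of PHGDH. PSAT1 was above PHGDH in both groups, 2.16 times in siNT and 18.8 times in siPAX9.

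The mitochondrial and cytosolic folate enzymes within the set were put side by side. All 4 mitochondrial genes were at least 2-fold lower in siPAX9, with a median log2 ratio of -1.75, and both cytosolic genes were within 2-fold, with a median of -0.44. The summed FPKM of the mitochondrial genes was 305 in siNT and 89.8 in siPAX9, and that of the cytosolic genes was 41.9 and 29.9. With 1 value per group, the difference between the compartments could not be tested, and the genes were chosen on this same contrast. MTHFD1L passed the 2-fold line only narrowly, as given below. Outside the set, mitochondrial MTHFD2L had a log2 ratio of -0.64. Cytosolic ALDH1L1, with a mean FPKM under 1, had one of -2.91.

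SHMT2 (chromosome 12, 57623356 to 57634475), the mitochondrial serine hydroxymethyltransferase, was the most abundant of the 10 genes in both groups, at 151 FPKM in siNT against 41.0 in siPAX9 and a log2 ratio of -1.88. Its cytosolic counterpart SHMT1 (chromosome 17, 18218525 to 18266877) stood at 14.5 FPKM in siNT against 12.0 in siPAX9, a log2 ratio of -0.27, the smallest difference in the set. SHMT2 was therefore 10.5 times SHMT1 in siNT and 3.41 times in siPAX9.

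MTHFD2 (chromosome 2, 74425667 to 74570534), the mitochondrial dehydrogenase and cyclohydrolase, stood at 112 FPKM in siNT against 36.5 in siPAX9, a log2 ratio of -1.62. MTHFD1L (chromosome 6, 151186815 to 151423023), which releases formate, stood at 18.2 FPKM in siNT against 8.87 in siPAX9. Its log2 ratio of -1.04 lay just past the 2-fold line, and adding 1 to every FPKM brought it to -0.96, and centring on the median of all genes to -0.97. MTHFD1 (chromosome 14, 64854759 to 65007086), the cytosolic enzyme with 3 activities, lay nearest to the line on the other side, at 27.4 FPKM in siNT against 17.9 in siPAX9 and a log2 ratio of -0.62. The quotient of MTHFD2 to MTHFD1 was 4.10 in siNT and 2.05 in siPAX9.

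ALDH1L2 (chromosome 12, 105413562 to 105478341), the mitochondrial 10-formyltetrahydrofolate dehydrogenase, stood at 22.9 FPKM in siNT against 3.33 in siPAX9. Its log2 ratio of -2.78 was the lowest after that of PHGDH, and 14.6% of the siNT level was left. ASNS (chromosome 7, 97481429 to 97502013), which is outside the serine route, stood at 44.4 FPKM in siNT against 7.98 in siPAX9, a log2 ratio of -2.48. ASNS and PHGDH were close to each other in siNT, with a quotient of 0.977, and in siPAX9 ASNS was 6.63 times PHGDH.

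By FPKM in siNT the order of the genes was SHMT2, MTHFD2, PSAT1, PHGDH, ASNS, MTHFD1, ALDH1L2, MTHFD1L, PSPH and SHMT1. In siPAX9 it was SHMT2, MTHFD2, PSAT1, MTHFD1, SHMT1, PSPH, MTHFD1L, ASNS, ALDH1L2 and PHGDH. The first 3 places were the same in both groups, while PHGDH had place 4 in siNT and place 10 in siPAX9. Whether neighbours in either order differ beyond the spread of samples cannot be said, since that spread is not known.

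**Figure D2:**
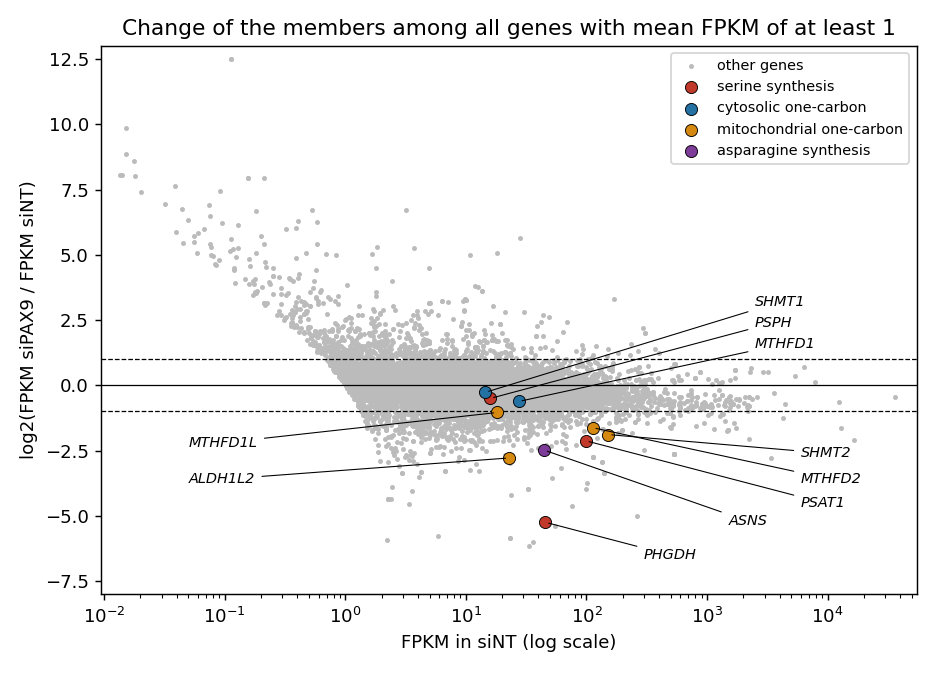
The horizontal axis gives FPKM in siNT on a log scale and the vertical axis the log2 ratio of siPAX9 to siNT, with 13144 genes in grey or, for the 10 genes of the set, in colour by role. A single gene with an FPKM near 0 in siPAX9 lies below the axis. Dashed lines mark the 2-fold limits, and 7 of the 10 coloured points lie under the lower line.

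The genes whose pair of group values lay nearest to that of PHGDH were named by the distance on the log2 FPKM scale over both groups. They were OLFM4 at a distance of 0.274, CAMK2B at 0.937, CXCR1 at 1.15, HP at 1.43 and a row labelled MIR641 at 1.55. OLFM4, which encodes a secreted glycoprotein, stood at 54.4 FPKM in siNT against 1.28 in siPAX9. The measure rests on 2 pooled values per gene and says nothing of shared function.

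The rows were then set against the gene annotation on GRCh37, the assembly that shares its chromosome coordinates with hg19. The row of MTHFD1 extends over 152328 bases and overlaps 4 other protein-coding genes, among them ZBTB1 on the same strand, which has a row of its own at 22.9 FPKM in siNT against 35.7 in siPAX9. The row of MTHFD2 extends over 144868 bases and overlaps 2, of which SLC4A5 lies on the opposite strand and its own row stood at 0.204 FPKM in siNT against 0.132 in siPAX9. The row of SHMT1 overlaps SMCR8, and that of SHMT2 overlaps NDUFA4L2, both on the opposite strand, and that of ALDH1L2 overlaps NOPCHAP1, also on the opposite strand. NDUFA4L2 was lower in the same direction as SHMT2, at 0.793 FPKM in siNT against 0.122 in siPAX9, a log2 ratio of -2.70. SMCR8 stood at 6.03 FPKM in siNT against 9.04 in siPAX9. Whether reads were counted by strand is not given in the sources used here, so reads of such neighbours could not be told apart where they overlap. The rows of PHGDH, PSAT1, PSPH, MTHFD1L and ASNS overlap no other protein-coding gene.

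Copies of the coding sequences elsewhere in the genome were also searched, since reads of a gene and of its pseudogene can be split between rows. A copy was a match of at least 100 bases with at least 90% identity. No copy was found for PHGDH, SHMT2 or ALDH1L2. For PSAT1, 3 copies together covered the whole coding sequence, and 6 rows without a symbol lay on them, of 114 to 497 bases. On the copy on chromosome 1, a row of 497 bases (79520568 to 79521064) stood at 59.9 FPKM in siNT against 15.1 in siPAX9. The log2 ratios of the 6 rows were between -2.17 and -1.94, against -2.12 for PSAT1 itself. For MTHFD2, 3 such rows had log2 ratios of -1.58, -1.48 and -0.87, against -1.62 for the gene. For ASNS the only such row, of 81 bases, had a log2 ratio of -2.01, against -2.48. For PSPH the only such row, of 98 bases, stood at 580 FPKM in siNT against 328 in siPAX9 and a log2 ratio of -0.82, against -0.50. SHMT1 and MTHFD1 each had 1 copy, with 91.3% and 93.1% identity, which covered 99.6% and 100% of the coding sequence and lay inside the rows of ST3GAL3 and FAAH2. The 4 copies of MTHFD1L covered 9.17% of its coding sequence. The levels of PSAT1, MTHFD2, ASNS, PSPH, SHMT1 and MTHFD1 are therefore uncertain by the reads that their copies could have taken up. FPKM of the short rows without a symbol may be inflated by their length, which was not tested, and cannot be added to that of the gene.

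**Figure D3:**
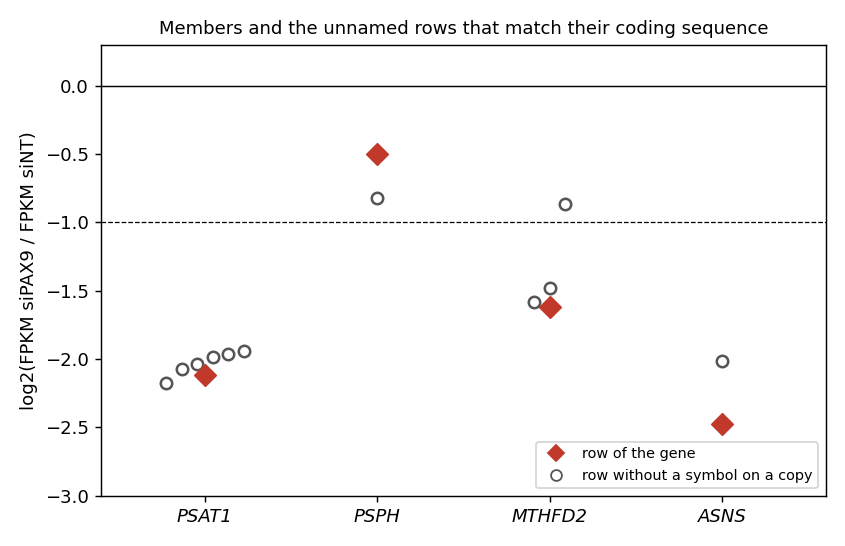
The vertical axis gives the log2 ratio of siPAX9 to siNT for the 4 genes with rows without a symbol on a copy of their coding sequence. Diamonds are the rows of the genes and open circles the rows on copies, and the dashed line marks a 2-fold decrease. The 6 circles of PSAT1 lie between -2.17 and -1.94, around its diamond at -2.12.

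The other genes of the surrounding pathways were examined as 8 lists with 96 genes, of which 85 had a mean FPKM of at least 1. Of these, 14 (16.5%) were at least 2-fold lower in siPAX9, against 6.90% of all genes, and 3 (3.53%) were at least 2-fold higher, against 6.82% of all genes. The median log2 ratio was -0.36, against -0.07 over all genes. FOLR1, CBS and SLC1A4 were under an FPKM of 1 in the group where they were low and passed the filter on the mean only through the other group. Of the 82 genes at or above 1 in both groups, 12 were at least 2-fold lower and 2 at least 2-fold higher. The share over all genes was not computed with this stricter filter, so nothing is read from these 2 counts. A count of 1 in a list of 13 genes (7.69%) is close to the share over all genes, and nothing is read from a single gene in the shorter lists. In the folate cycle and transport list, 2 of 14 were lower and 2 were higher, with a median of -0.31. TYMS, the thymidylate synthase, stood at 26.6 FPKM in siNT against 12.6 and GGH, which trims the glutamate tail of folates, at 16.2 against 5.22. SLC46A1, the proton-coupled folate transporter, was higher in siPAX9, with 10.5 in siNT against 31.8. FOLR1, a folate receptor, stood at 0.177 FPKM in siNT against 2.97, so that without it 1 gene was higher. MTHFD2L, a mitochondrial relative of MTHFD2, had a log2 ratio of -0.64.

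In the glycine list, 1 of 6 was lower and 0 were higher, with a median log2 ratio of -0.51. That gene was GLDC, the decarboxylase of the glycine cleavage system, at 12.0 FPKM in siNT against 1.51 in siPAX9. The other subunits AMT, GCSH and DLD had log2 ratios of 0.06, -0.48 and 0.14, where AMT shares its row with NICN1. In the methionine cycle and transsulfuration list, 1 of 6 was lower, with a median log2 ratio of -0.51. That gene was CBS, which joins serine to homocysteine, at 2.94 in siNT and 0.287 in siPAX9, and none of the 5 genes at or above 1 in both groups differed 2-fold. Its row is shared with the copy CBSL, and its reads could not be told from those of CBSL.

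In de novo purine synthesis, which uses formyl units from folate, 12 of 13 genes were lower than in siNT, with a median log2 ratio of -0.76, where 55.4% of all 13145 genes were lower. At least 2-fold lower were 4 of the 13 (30.8%, against 6.90% of all genes), PRPS2, ADSL, ADSS and IMPDH2, with log2 ratios from -1.29 to -1.14. At least 2-fold higher was 1 of the 13 (7.69%, against 6.82% of all genes). ADSSL1, the muscle form of adenylosuccinate synthase, was the only gene that was 2-fold higher, with 3.08 in siNT and 6.54 in siPAX9, and it did not reach 2-fold with 1 added to its FPKM. GART and ATIC, the enzymes that use formyltetrahydrofolate, had log2 ratios of -0.43 and -0.65. Of the 6 measured glycolytic genes around 3-phosphoglycerate, 0 differed 2-fold, and the median log2 ratio was -0.23. GAPDH had a log2 ratio of -0.76 and ENO1 one of -0.45.

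Among the 13 genes of serine entry and use, 1 was 2-fold lower, the serine transporter SLC1A4, which did not reach 2-fold with 1 added to its FPKM, at 1.66 in siNT and 0.499 in siPAX9. SFXN1, which carries serine into mitochondria, had a log2 ratio of -0.20. The median of that list was -0.18. Among the 14 enzymes of aspartate, glutamate and proline, 2 were lower (14.3%, against 6.90% of all genes), with a median of -0.39. GPT2, the mitochondrial alanine aminotransferase, stood at 23.6 FPKM in siNT against 7.36, and PYCR1, which makes proline in mitochondria, at 18.1 against 5.86.

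Of the 13 regulators, 3 were at least 2-fold lower (23.1%, against 6.90% of all genes) and 0 were higher (against 6.82%). The median log2 ratio of the list was -0.08, against -0.07 over all genes. ATF4 stood at 404 FPKM in siNT against 157 in siPAX9, a log2 ratio of -1.37. TRIB3, a pseudokinase, stood at 65.8 FPKM in siNT against 14.1, and CHAC1, a glutathione-degrading enzyme, at 8.60 against 1.14. Of the 13 regulators, 7 had a log2 ratio below 0 and 6 above. The 6 above 0 were ATF3 (0.76), ATF5 (0.39), EIF2AK4 (0.29), DDIT3 (0.09), SESN2 (0.03) and CEBPG (0.01). MYC had a log2 ratio of -0.67 and NFE2L2, which encodes NRF2, one of -0.08.

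**Figure D4:**
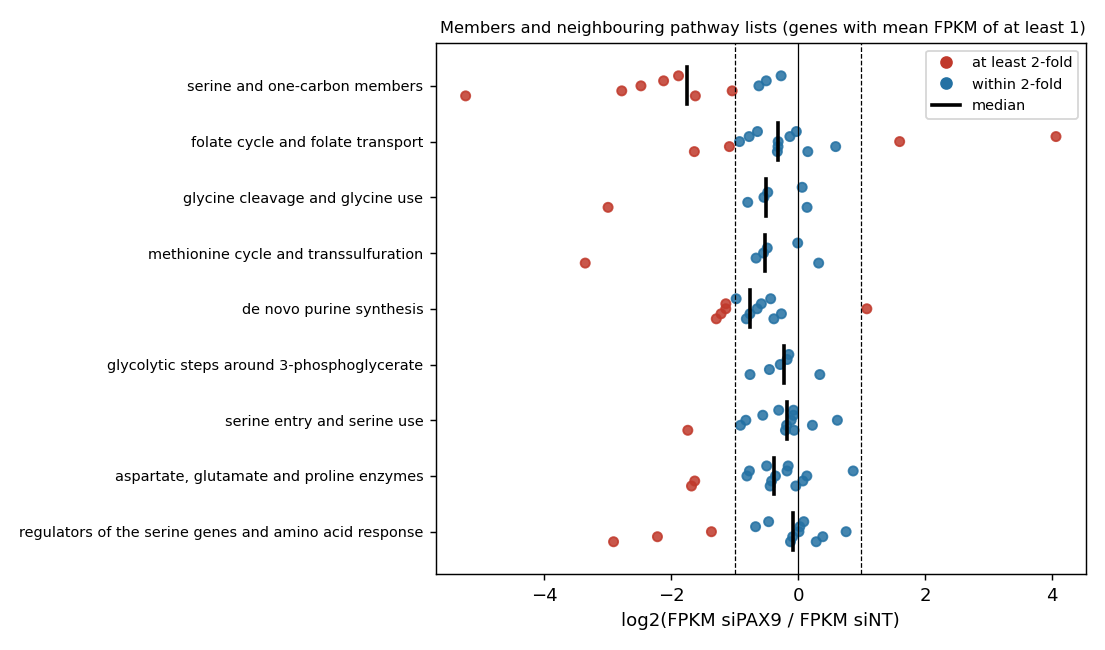
The horizontal axis gives the log2 ratio of siPAX9 to siNT, with 1 point per gene with a mean FPKM of at least 1, for the 10 genes of the set and the 8 surrounding lists. Red points differ at least 2-fold, blue points do not, and black bars are medians, which run from -0.76 for purine synthesis to -0.08 for the regulators against -1.75 for the set.

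Genes of proliferation and of squamous differentiation also differed between the groups, where 6.90% of all genes were at least 2-fold lower and 6.82% at least 2-fold higher. Of 10 proliferation genes, 8 were at least 2-fold lower in siPAX9, with a median log2 ratio of -1.60 and a summed FPKM of 230 in siNT and 83.2 in siPAX9. Of 10 squamous differentiation genes, 3 were at or above an FPKM of 1 in both groups, SPRR1B, KRT10 and TGM1, and these 3 were at least 2-fold higher. Another 4, IVL, SPRR1A, SPRR3 and KRT13, reached a mean of 1 only through siPAX9. The summed FPKM of the 10 was 35.4 in siNT and 624 in siPAX9. Among markers of other cells, DCN of the 6 fibroblast genes stood at 5.85 FPKM in siNT against 37.9, and COL1A1, which reached a mean of 1 only through siPAX9, at 0.454 against 4.13. The summed FPKM of that list was 6.40 in siNT against 42.2, with COL3A1 at 0 in both groups. The leukocyte list summed to 14.5 against 56.7, nearly all of it CD14, with CD3E at 0 in both groups. Of the endothelial genes, none was at or above 1 in both groups. PECAM1 stood at 2.58 FPKM in siNT against 0.495, KDR at 0.798 against 1.94, and the list summed to 3.38 against 2.46. Of 7 luminal epithelial genes, 4 had a mean FPKM of at least 1 and EPCAM alone was 2-fold lower, with a sum of 304 against 202. The basal epithelial list summed to 3652 against 4324. The part of these differences in the levels of the serine and folate genes was not tested.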

How the data were processed

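MCF10A cells were sequenced in 2 groups of 3 samples, siNT and siPAX9. The authors used Partek Flow to align single-end reads of poly(A)+ libraries (Bowtie 2, UCSC hg19) and to quantify loci (Cufflinks), and deposited 1 FPKM per group and row; the scaling between libraries is not given in the sources used here. The deposited fold changes, p-values and q-values of the authors' comparison were not used. From the FPKM, log2(siPAX9/siNT) was computed without a pseudocount. A gene was a distinct symbol, and of several rows the one with the highest mean FPKM was kept. The background was genes with a mean FPKM of at least 1, and a gene was counted past a fold of 2, the fold of the study. There were 0 columns of values per sample, so replicate spread is unknown and no test was run; the study's methods give total reads as a range over libraries, and the reads behind each FPKM are unknown. The genes, lists and motifs were chosen with earlier results of these data known. Named were PAX9, the 10 genes, list genes past 2-fold (or the 2 most abundant of a list with none), the 5 genes nearest to PHGDH, and markers as lists; other genes named were chosen after their values were seen. Of the motifs that the study lists for PAX9, GCGGAACGG is given, another that was searched is not reported here, and the rest were not searched. Alternatives were 1 added to each FPKM, centring, summed or single-symbol rows, folds of 1.5 and 4, no filter, and a mean FPKM of at least 5. Copies were searched with blastn 2.17.0 (word size 28). The ratio and motif steps were tested on simulated data. Python 3.11.15, numpy 2.4.6, pandas 2.3.3 and matplotlib 3.10.9 were used.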

Additional observations from a re-analysis of the deposited data

How the results depend on the processing

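No paired analysis was possible because the table holds 1 pooled FPKM per group, and for the same reason no sample could be left out. When 1 was added to every FPKM, or ratios were centred on the median over all genes (-0.07), 6 of the 10 genes were at least 2-fold lower, MTHFD1L being the gene lost, and the median log2 ratio of the 10 was -1.73 and -1.68. Of all genes, 4.93% and 6.02% were then at least 2-fold lower. The ratio of PHGDH was then -4.40 and -5.17. At a fold of 4, the genes counted as lower were 4 of the 10, against 1.56% of all genes, and 5 of the 85 surrounding pathway genes (5.88%) differed in either direction, against 4.30% of all genes. At a fold of 1.5, 8 of the 10 were lower, against 16.7% of all genes, and 36 of the 85 pathway genes (42.4%) differed in either direction, against 30.4% of all genes. At a fold of 2 these were 17 (20.0%), against 13.7%. Summing rows of a symbol or keeping single-symbol rows left the 10 genes unchanged, and the latter removed CBS. With a mean FPKM of at least 5, 12 of 73 pathway genes (16.4%) differed in either direction, against 10.1% of all genes, and FOLR1, CBS, SLC1A4, ADSSL1 and CHAC1 were no longer counted. With no filter beyond an FPKM above 0 in both groups, 22 of 94 differed (23.4%), against 21.9% of all genes. No direction of the 10 genes changed, but these settings could not have shown a change. Adding 1 to both values cannot reverse a ratio, and folds and filters leave it as it is. Each of the 10 genes has a single row. Centring moved ratios by the median of -0.07, whereas the smallest difference, that of SHMT1, was -0.27.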

Other observations

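Of the 96 genes of the surrounding pathways, 11 had a mean FPKM under 1 and were left out of the counts. Among them ALDH1L1, the cytosolic counterpart of ALDH1L2, stood at 1.07 FPKM in siNT against 0.142 in siPAX9, and CTH, the second enzyme of transsulfuration, at 1.17 against 0.631. SDSL, of the serine entry and use list, went the other way, at 0.546 FPKM in siNT against 1.37 in siPAX9. MTAP, which salvages methionine and lies beside CDKN2A in a region that MCF10A cells are known to lack, was listed at 0 in siNT and 0.00411 in siPAX9. These genes were chosen after their values were seen.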
